A study of Mus musculus with 8 samples.

Results

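Heavy chain V genes encode most of the variable part of an antibody's heavy chain, and 110 of them were examined in the stromal vascular fraction (SVF) of mouse gonadal white adipose tissue (WAT), grouped by subfamily. The members were the rows of the deposited count table with a V gene biotype and a name beginning with Ighv, except Ighv11-1, Ighv11-2 and Ighv12-3. They make up 110 of 113 heavy chain V genes and 110 of the 54532 genes of the table. The SVF is what remains of a collagenase-digested fat pad once the adipocytes have floated off, and it holds immune cells, fibroblast-like progenitors and endothelial cells. Male C57BL/6J mice, aged 6 weeks at the start by the series' design text (the methods give another age), were fed an HFD (60% of calories from fat) for 12 weeks. They were then moved to a NCD (16% of calories from fat) and injected every 2 weeks, over 6 weeks and up to week 18, with either anti-BAFF Ab (clone Sandy-2) or an isotype control Ab (IgG1k), both at 2 mg/kg. The control Ab group had 4 libraries, from mice 1, 2, 6 and 9, and the anti-BAFF Ab group had 4, from mice 5, 7, 8 and 10, with 1 library to a mouse. The mice had been divided into the groups by a glucose tolerance test, and every mouse of both groups had been obese and had changed diet.

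During B cell development one V segment is joined to a D and a J segment, and the joined exon is transcribed with a constant gene such as Ighm, so a B cell or plasma cell usually expresses a single heavy chain V gene. V genes are numbered by subfamily, a group of related sequence: Ighv1 is the largest in this mouse strain and holds many near-identical copies. BAFF is a cytokine that mature follicular and marginal zone B cells need to survive, whereas B-1 cells and many plasma cells depend on it less. In bulk RNA, fewer B-lineage cells and less antibody RNA per cell cannot be told apart, and a V gene's level reflects both the number of cells that chose it and how strongly each transcribes it.

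All 110 members lay on the minus strand of chromosome 12, between 113578504 and 116000461 (mm10). The constant genes and the D segments lie at lower coordinates, so a low start position means near the D segments (D-proximal) and a high one means distal. The 110 genes fell into 14 subfamilies: 53 in Ighv1, 10 in Ighv5, 9 each in Ighv2 and Ighv8, 6 in Ighv3, 5 in Ighv6, 4 each in Ighv7, Ighv9 and Ighv14, 2 in Ighv10, and 1 each in Ighv4, Ighv13, Ighv15 and Ighv16. Subfamilies were not mixed evenly along the locus. The first 47 members from the D end held no Ighv1 gene, and the 53 Ighv1 genes filled the rest of the locus with 10 genes of other subfamilies, mostly Ighv8, among them.

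Counts were found on 96 members, and 14 members had 0 counts in every mouse, among them Ighv16-1. The library totals ranged from 13562340 to 16778627 counts with control Ab and from 14555098 to 18548024 with anti-BAFF Ab. Members received 3034, 1652, 1818 and 3307 counts in control Ab-treated mice 1, 2, 6 and 9, and 607, 231, 708 and 357 counts in anti-BAFF Ab-treated mice 5, 7, 8 and 10. At least 10 counts fell on 40 to 48 members in each control Ab-treated mouse and on 4 to 18 members in each anti-BAFF Ab-treated mouse. A limit of 3 counts corresponds to 0.165 to 0.219 CPM (counts scaled by library size and TMM factor) depending on the mouse, and covers counting error only. For every 100 Ighm counts there were 11.7, 9.70, 9.87 and 12.5 member counts in the control Ab-treated mice and 11.8, 8.13, 11.9 and 9.86 in the anti-BAFF Ab-treated mice. These ranges overlapped between the groups. The 70 heavy chain V pseudogenes of the table had 13 counts over all mice.

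Tests used edgeR's quasi-likelihood test on all genes, and a negative log2 fold change means a lower level with anti-BAFF Ab. edgeR's filter on low counts kept 28 of the 110 members, 13 of Ighv1 and 15 of other subfamilies. The filter asks for a minimum count in as many mice as 1 group holds, so most of the 28 passed through the control Ab-treated mice and had to be lower with anti-BAFF Ab. All 28 had a log2 fold change below 0 (48.5% of the 15963 genes tested), and 19 reached an unadjusted p under 0.05 (1.24% of all genes were lower at that p). Because of the filter, both counts are a description and are not read against these shares. After Benjamini-Hochberg adjustment over all genes 0 members passed 0.05 (background 0.0564%), and the lowest adjusted p, from edgeR, was 0.0765 for Ighv7-3. DESeq2's Wald test, run without that filter, called 21 members lower and 0 higher at an adjusted p of 0.05 (background 0.249%), and 10 of these 21 were not tested by edgeR. The 68 members with counts that were not tested held 26.4% of all member counts.

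Summing the counts of a subfamily makes its value independent of how counted reads were shared between its copies, but does not restore reads that the counting may have dropped. With each subfamily as 1 row of the table, 11 of the 14 sums were tested. Ighv2 and Ighv8 fell, with 2 of 11 sums past an adjusted p of 0.05 against a background of 0.0690%. An unadjusted p under 0.05 was reached by 10 of 11, all lower (background 1.20%), and 9 of 11 sums did not overlap between the groups (background 0.934%). The same filter on low counts was applied to the sums, and some, such as Ighv8, passed it through the control Ab-treated mice. The counts over tested sums are therefore a description too and are not read against these shares. DESeq2's Wald test called 10 sums lower (background 0.235%), every tested one but Ighv4.

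**Figure D1:**
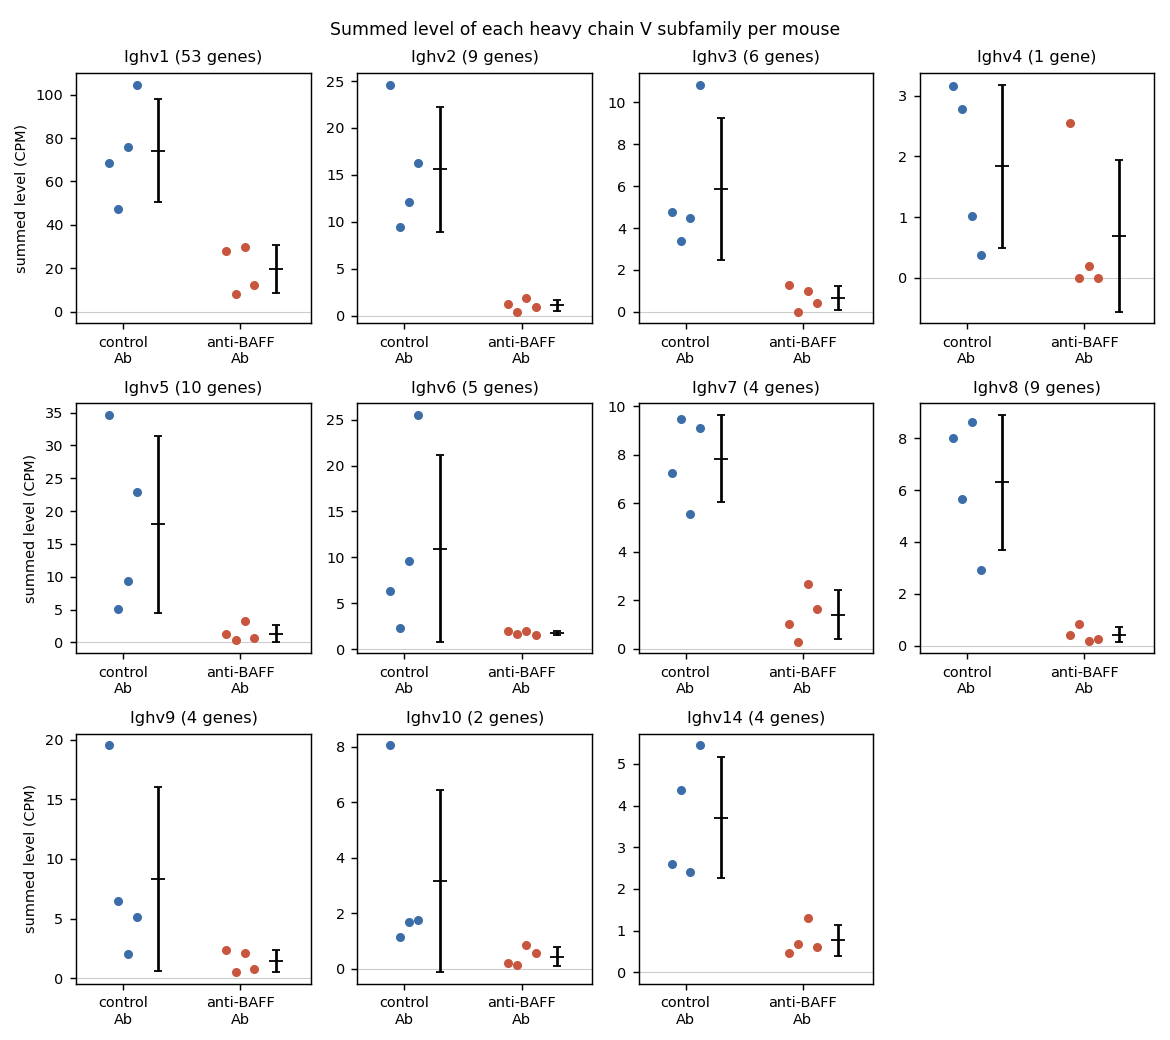
Summed level of the 11 tested subfamilies in CPM, on a linear axis that differs between panels. Points are single mice, and the dash with bars is the mean with its SD (n = 4 per group). In 9 panels every anti-BAFF Ab-treated mouse lies below every control Ab-treated mouse, and the groups overlap in Ighv4 and Ighv9.

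Ighv2 is a subfamily of 9 genes close to the D segments (113588267 to 113879541). Its summed level was 24.6, 9.46, 12.1 and 16.2 CPM in control Ab-treated mice 1, 2, 6 and 9, and 1.21, 0.394, 1.83 and 0.882 CPM in anti-BAFF Ab-treated mice 5, 7, 8 and 10. The lowest control value lay above the highest anti-BAFF value by more than the spread of the latter group. In edgeR the log2 fold change was -3.86 with a standard error of 0.45 (adjusted p = 0.0384).

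Ighv8, also of 9 genes (114462291 to 115765635), has its first gene, Ighv8-2, just before the first Ighv1 gene and the others scattered among the Ighv1 genes. Its summed level was 8.002, 5.67, 8.63 and 2.91 CPM with control Ab and 0.404, 0.845, 0.196 and 0.276 CPM with anti-BAFF Ab. The groups did not overlap, and edgeR gave a log2 fold change of -3.83 with a standard error of 0.50 (adjusted p = 0.0384). The single gene Ighv8-8 made up 4.28 of the mean of 6.31 CPM with control Ab and 0.0913 of 0.430 CPM with anti-BAFF Ab. The other tested gene of Ighv8, Ighv8-12, had a log2 fold change of -2.12, near the median of -2.33 over the 28 tested members. The calls of Ighv2 and Ighv8 both sat close to the threshold. With 1 mouse left out in turn, 0 or 1 of the sums was called: Ighv2 without control Ab-treated mouse 2, Ighv8 without control Ab-treated mouse 9, and 0 sums without any other mouse. The log2 fold changes then stayed between -4.25 and -3.57 for Ighv2 and between -4.41 and -3.62 for Ighv8.

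Ighv5, whose genes lie in the same D-proximal stretch as Ighv2 (113578504 to 113859670), had a summed level of 34.7, 5.08, 9.29 and 23.0 CPM with control Ab and 1.21, 0.338, 3.20 and 0.607 CPM with anti-BAFF Ab. Its log2 fold change was as large as that of Ighv2 at -3.77, but the control values spread almost as widely as their mean (18.0 ± 13.5 CPM, SD, n = 4), and the adjusted p from edgeR was 0.439. The single gene Ighv5-17 made up 13.9 of the 18.0 CPM with control Ab and 0.285 of the mean of 1.34 CPM with anti-BAFF Ab. Ighv5-4 was at 0.990 and 0.785 CPM on average (log2 fold change -0.335), most of the anti-BAFF level of Ighv5. Ighv5 and Ighv2 together kept 7.19% of their mean control level.

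Ighv1, the largest subfamily (114487136 to 116000461), was the least reduced of the non-overlapping sums. Its level was 68.4, 47.5, 76.0 and 104.6 CPM with control Ab and 28.2, 8.16, 29.8 and 12.4 CPM with anti-BAFF Ab. In edgeR the log2 fold change was -1.92 with a standard error of 0.41 (adjusted p = 0.565). Its anti-BAFF mean was 26.5% of the control mean, whereas that of all other members together was 12.6%.

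The middle-sized subfamilies lay between these. Ighv3 had a log2 fold change of -3.14, Ighv10 of -2.87, Ighv6 of -2.61, Ighv7 of -2.48 and Ighv14 of -2.28. None of these 5 passed after adjustment in edgeR, with adjusted p-values from 0.193 for Ighv14 upward, although the groups did not overlap in any of them. Ighv6 had an even floor: its 4 anti-BAFF values lay between 1.54 and 1.96 CPM, while its control values ran from 2.31 to 25.5 CPM. Ighv3 was at 0 in anti-BAFF Ab-treated mouse 7.

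In Ighv9 and Ighv4 the groups overlapped. Ighv9 was at 19.5, 6.50, 2.05 and 5.14 CPM with control Ab and at 2.36, 0.507, 2.09 and 0.772 CPM with anti-BAFF Ab (log2 fold change -2.55, adjusted p = 1.00 from edgeR). Ighv4, which is the single gene Ighv4-1, was at 3.16, 2.78, 1.02 and 0.372 CPM with control Ab. With anti-BAFF Ab it was at 2.56 CPM in mouse 5, 0.196 CPM in mouse 8 and 0 in mice 7 and 10. Leaving out mouse 5 moved its log2 fold change from -1.47 to -4.79.

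Ighv13, Ighv15 and Ighv16 were not tested. Ighv13-2 had 13 counts in the control Ab-treated mice and 17 in the anti-BAFF Ab-treated mice, all of the latter in mouse 8. Ighv15 had 1 count in all mice.

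Because the sums differed in how much they were reduced, the make-up of the member counts was compared as shares within each mouse, which do not depend on the total. Ighv1 took 36.4%, 48.7%, 57.2% and 51.0% of member counts in control Ab-treated mice 1, 2, 6 and 9, and 69.0%, 62.8%, 64.5% and 62.7% in anti-BAFF Ab-treated mice 5, 7, 8 and 10. Every anti-BAFF Ab-treated mouse was above every control Ab-treated mouse. The 95% Wilson intervals, which cover counting error only, reached down to 56.4% in mouse 7, the library with fewest member counts, and up to 59.4% in mouse 6. The means were 48.3 ± 8.73% and 64.8 ± 2.96% (SD, n = 4 each), a difference of 16.5 percentage points. The two-sided exact permutation p was 0.0286, the smallest that 4 mice against 4 can give, and 0.0571 after adjustment over the 2 shares tested.

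Within Ighv1, a pair of genes with high shares in some anti-BAFF Ab-treated mice was looked at after the values were seen. Ighv1-53 and Ighv1-55 together took 4.78%, 6.42%, 11.9% and 13.7% of member counts with control Ab and 32.5%, 33.8%, 20.3% and 11.8% with anti-BAFF Ab. The other 51 Ighv1 genes took 31.6% to 45.2% and 29.0% to 51.0%, and these ranges overlapped. In mouse 10 the pair was within the control range, and the other 51 genes took 51.0%. With both genes taken out of the member counts, a choice made after their values were seen, the Ighv1 share was 43.2% and 52.8% on average. That difference of 9.57 points gave a two-sided exact permutation p of 0.0857, and the groups overlapped. Since the pair was chosen from these same shares, its removal favours a smaller difference. This p therefore cannot tell what part of the difference the pair carried.

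The share of Ighv2 moved the other way, from 7.92% to 13.1% over the control Ab-treated mice and from 2.97% to 4.48% over the anti-BAFF Ab-treated mice. Only the Ighv1 and Ighv2 shares were without overlap among the 14 subfamilies. The Ighv2 share was picked after its values were seen and was not tested, and since shares add up to the whole, a higher share of one subfamily lowers the others.

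**Figure D2:**
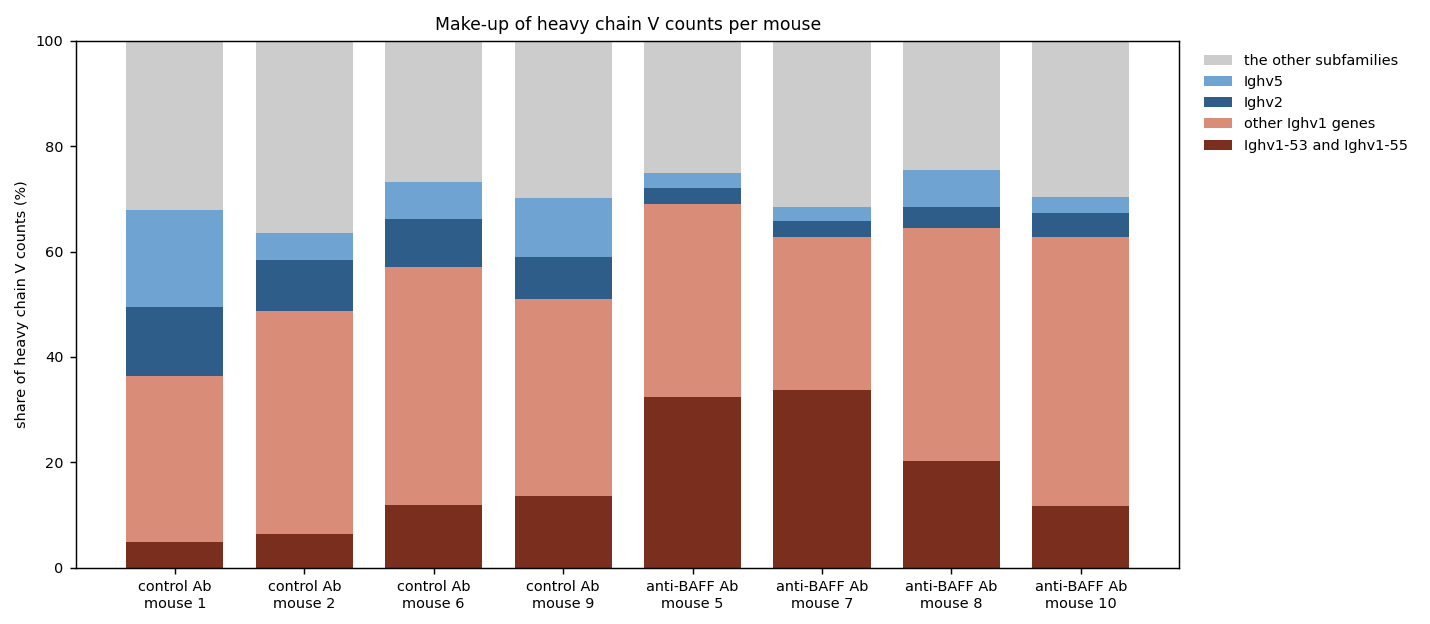
Share of heavy chain V counts, in percent, taken by Ighv1-53 with Ighv1-55, the other Ighv1 genes, Ighv2, Ighv5 and the other subfamilies, one bar per mouse. The Ighv1 genes (both red parts) reach 36.4% to 57.2% in the control Ab-treated mice and 62.7% to 69.0% with anti-BAFF Ab.

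The leading member differed between most mice. In the control Ab-treated mice this was Ighv5-17 in mouse 1 (16.7% of member counts, 95% Wilson interval 15.4 to 18.1%), Ighv1-26 in mouse 2 (8.54%), Ighv2-3 in mouse 6 (7.10%) and Ighv6-3 in mouse 9 (8.74%). In the anti-BAFF Ab-treated mice Ighv1-53 led in mouse 5 (20.8%) and mouse 8 (16.0%), Ighv1-55 in mouse 7 (29.9%, interval 24.3 to 36.1%) and Ighv1-80 in mouse 10 (19.6%). All 4 anti-BAFF leaders were thus Ighv1 genes, against 1 of 4 control leaders. Ighv1 makes up 53 of the 110 members. Its mean share was 64.8% across the anti-BAFF Ab-treated mice and 48.3% across the controls. The leaders were read from the same counts as this share and are not separate evidence for its difference. Between 7 and 12 members held 50% of the member counts with control Ab, and between 4 and 7 did so with anti-BAFF Ab. This number and the leading share can depend on depth, which was not matched. Member counts were 1652 to 3307 with control Ab and 231 to 708 with anti-BAFF Ab.

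Levels of different genes were ranked per kilobase, with the gene lengths of the table (294 to 480 bases). In the mean of the control Ab-treated mice Ighv5-17 ranked first (34.4 CPM per kilobase), followed by Ighv1-53 (22.3), Ighv1-26 (20.1), Ighv9-3 (19.8) and Ighv6-3 (19.3). In the mean of the anti-BAFF Ab-treated mice Ighv1-53 ranked first (12.5 CPM per kilobase), followed by Ighv1-55 (7.10), Ighv1-82 (5.35), Ighv1-26 (4.07) and Ighv6-3 (3.91). Ighv5-17 ranked 30 there and Ighv2-9, which was sixth with control Ab, ranked 53. Neighbours among those named differed by less than the SD between mice of at least one of the pair.

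**Figure D3:**
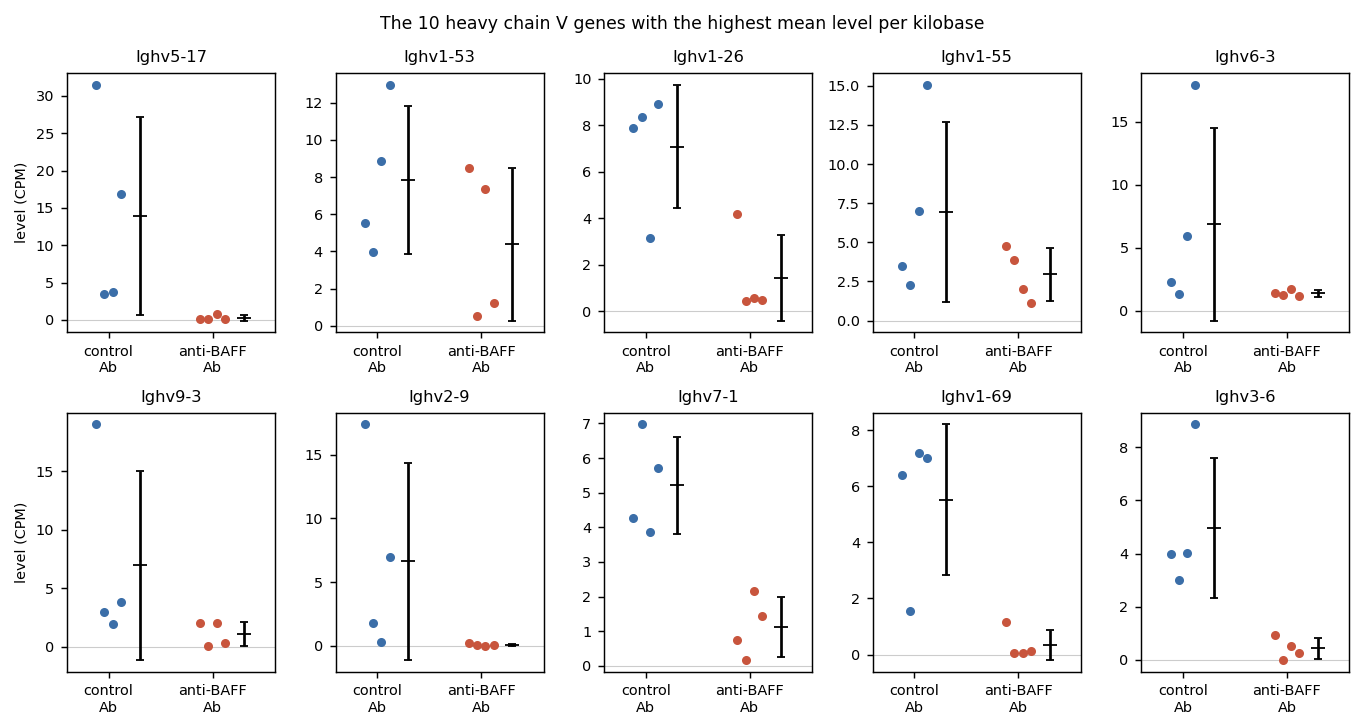
Level in CPM of the 10 members with the highest mean CPM per kilobase over all 8 mice, on linear axes that differ between panels. Points are single mice, and the dash with bars is the mean with its SD (n = 4 per group). Ighv5-17, Ighv2-9, Ighv7-1, Ighv1-69 and Ighv3-6 do not overlap between the groups, whereas Ighv1-53 and Ighv1-55 do.

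The lowest log2 fold change among the 28 tested members was that of a D-proximal gene, and that of distal Ighv8-8 lay within a standard error of it. Ighv5-17 (113859149 to 113859670) was at 31.4, 3.49, 3.80 and 16.9 CPM with control Ab and at 0.0673, 0.113, 0.848 and 0.110 CPM with anti-BAFF Ab. The groups did not overlap, but the control values were spread widely. Its log2 fold change of -5.62 (standard error 1.00) had an adjusted p of 0.203 in edgeR and of 0.00015 in DESeq2.

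Ighv2-9 (113879096 to 113879541) was similarly uneven, at 17.4, 1.83, 0.293 and 7.0 CPM with control Ab and 0.202, 0.0563, 0 and 0.110 CPM with anti-BAFF Ab. It did not pass edgeR's filter, and its adjusted p in DESeq2 was 0.00286. Ighv7-1 (113896408 to 113896946) had the steadiest control values of the 10 leading genes, at 4.28, 6.97, 3.88 and 5.70 CPM, against 0.741, 0.169, 2.15 and 1.43 CPM. edgeR gave a log2 fold change of -2.21 with a standard error of 0.55 (adjusted p = 0.938), and DESeq2 an adjusted p of 0.0141.

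Further along, Ighv9-3 (114140692 to 114141122) overlapped between the groups, since its level of 18.98 CPM in control mouse 1 stood far above the 1.98 to 3.84 CPM of the other controls, and the anti-BAFF values reached 2.02 CPM. Ighv3-6 (114288152 to 114288582) did not overlap, with 3.97, 3.01, 4.02 and 8.86 CPM against 0.942, 0, 0.522 and 0.276 CPM. edgeR gave a log2 fold change of -3.54 with a standard error of 0.71 (adjusted p = 0.350), and DESeq2 an adjusted p of 3.0e-05. Ighv6-3 (114391712 to 114392169) ran from 1.30 to 17.9 CPM with control Ab and from 1.16 to 1.76 CPM with anti-BAFF Ab, so its groups overlapped through the lowest control.

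The leading genes of the smaller subfamilies showed both patterns. Ighv14-2 (113994469 to 113994898) was at 1.30, 2.36, 1.02 and 3.04 CPM with control Ab and at 0, 0.619, 0.326 and 0.441 CPM with anti-BAFF Ab, without overlap (log2 fold change -2.42, adjusted p = 1.00 from edgeR). Its adjusted p in DESeq2 was 0.0479. Ighv10-3 (114523441 to 114523905) had most of its control level in mouse 1, at 6.14 CPM against 0 to 0.946 CPM in the other controls, and overlapped with the 0 to 0.783 CPM of the anti-BAFF Ab-treated mice.

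Among the Ighv1 genes, Ighv1-53 (115158403 to 115158835) was at 5.52, 3.96, 8.85 and 12.9 CPM with control Ab and at 8.48, 0.507, 7.37 and 1.21 CPM with anti-BAFF Ab. Mice 5 and 8 were thus within the control range, and mice 7 and 10 below it. In edgeR the log2 fold change was -0.84 with a standard error of 0.76 (adjusted p = 1.00).

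Ighv1-55 (115208095 to 115208591) was at 3.47, 2.31, 7.02 and 15.1 CPM with control Ab and at 4.78, 3.88, 2.02 and 1.10 CPM with anti-BAFF Ab. Here mice 5 and 7 were within the control range, so the gene that stayed near its control level was not the same in every mouse. The edgeR log2 fold change was -1.24 with a standard error of 0.63 (adjusted p = 1.00).

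Further Ighv1 genes had lower fold changes, though neither of the next pair passed after adjustment in edgeR. DESeq2's Wald test called Ighv1-69 (adjusted p = 0.00032) but not Ighv1-26 (adjusted p = 0.160). The differences of both genes from Ighv1-53 and Ighv1-55 were not tested. Ighv1-69 (115623161 to 115623595) was at 6.39, 1.54, 7.17 and 7.0 CPM with control Ab and at 1.14, 0.0563, 0.0653 and 0.110 CPM with anti-BAFF Ab, without overlap (log2 fold change -4.04, standard error 0.86, adjusted p = 0.506 from edgeR). Ighv1-26 (114788372 to 114788805) was at 7.88, 8.33, 3.15 and 8.92 CPM and at 4.17, 0.450, 0.587 and 0.496 CPM, overlapping only through mouse 5 (log2 fold change -2.33, standard error 0.72, adjusted p = 1.00 from edgeR). Of the 28 tested members 12 did not overlap between the groups (background 0.952%), a description with the same limit as the other counts over tested members.

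Ighv8-8 (115294062 to 115294504), the leading gene of Ighv8, sits between Ighv1 genes, a short way distal to Ighv1-55. It was at 6.58, 3.78, 5.78 and 0.991 CPM with control Ab and at 0.135, 0, 0.0653 and 0.165 CPM with anti-BAFF Ab. The log2 fold change of -5.44 had a standard error of 0.77, with an adjusted p of 0.0791 in edgeR and of 1.8e-08 in DESeq2. With control Ab-treated mouse 9 left out the adjusted p in edgeR was 0.0174. Leaving out any other mouse gave adjusted p-values of 0.138 to 0.282. The members on either side of it, Ighv1-56 and Ighv1-58, were not tested. The groups overlapped in both, as they did in Ighv1-53 and Ighv1-55, which lie further off.

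Some genes were high in a single anti-BAFF Ab-treated mouse. Named after their values were seen, these were Ighv1-80 at 3.86 CPM in mouse 10 (0.0563 to 0.457 CPM in the other 3), Ighv1-82 at 5.94 CPM in mouse 8 (0.338 to 1.48 CPM) and Ighv1-84 at 1.88 CPM in mouse 5 (0 in the others). In mouse 8 the level of Ighv1-82 exceeded its level in every control Ab-treated mouse (0.620 to 5.09 CPM). The gap to the highest control was small, with 91 counts in mouse 8 and 82 in control Ab-treated mouse 1, and was not tested. The log2 fold change of Ighv1-82, -0.19 (standard error 0.89), was the closest to 0 of the 28 tested members.

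At the other extreme, 16 members had counts in control Ab-treated mice only and 3 in anti-BAFF Ab-treated mice only, the latter with at most 3 counts each. Of the 16, 7 had more than 3 counts in all. Ighv1-47 had the most, at 1.18, 0.177, 1.98 and 1.80 CPM in the control Ab-treated mice. Against a floor of 3 counts over the 4 anti-BAFF libraries (0.0454 CPM) it was at least 27.3-fold lower. By the same floor Ighv2-5 was at least 19.6-fold lower and Ighv5-9-1 at least 18.6-fold lower. The mean level was higher with anti-BAFF Ab for 11 members, all of them with 28 or fewer counts in that group. The first and last members with counts along the locus were Ighv5-2 (113578504 to 113578990), with counts in 1 mouse of each group, and Ighv1-85 (116000028 to 116000461), at 0.118 to 1.80 CPM with control Ab and 0 to 0.0673 CPM with anti-BAFF Ab.

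Whether the reduction went with position was examined by the share of member counts on the D-proximal 50% of the genes. This share was 61.8%, 51.5%, 41.3% and 51.0% with control Ab and 32.0%, 33.3%, 43.5% and 42.0% with anti-BAFF Ab. Control Ab-treated mouse 6 lay within the anti-BAFF range, so the groups overlapped. The difference of -13.7 points had a two-sided exact permutation p of 0.0857, the same after adjustment over the 2 shares.

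With the gene order from the D end cut into 4 runs of 27 or 28 genes, the anti-BAFF mean was 11.7%, 16.4%, 26.1% and 24.2% of the control mean. The run at 26.1% holds Ighv1-53 and Ighv1-55. This pair made up 14.8 of its 41.3 CPM with control Ab and 7.34 of its 10.8 CPM with anti-BAFF Ab, so the 4 values are not read as a steady rise. Within Ighv1, the D-proximal 26 genes kept 16.5% and the distal 27 genes, which include Ighv1-53 and Ighv1-55, kept 33.1%. The distal Ighv1 genes took 21.5% to 36.8% of member counts with control Ab and 45.9% to 53.5% with anti-BAFF Ab. The D-proximal Ighv1 genes took 14.9% to 23.0% and 15.5% to 16.9%, within the control range. The 10 other members among the Ighv1 genes kept 8.41%, and the 47 members before the first Ighv1 gene 13.1%. These splits were made after earlier results were known and were not tested. Since Ighv1 is absent from the D-proximal end, position and subfamily cannot be fully told apart.

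**Figure D4:**
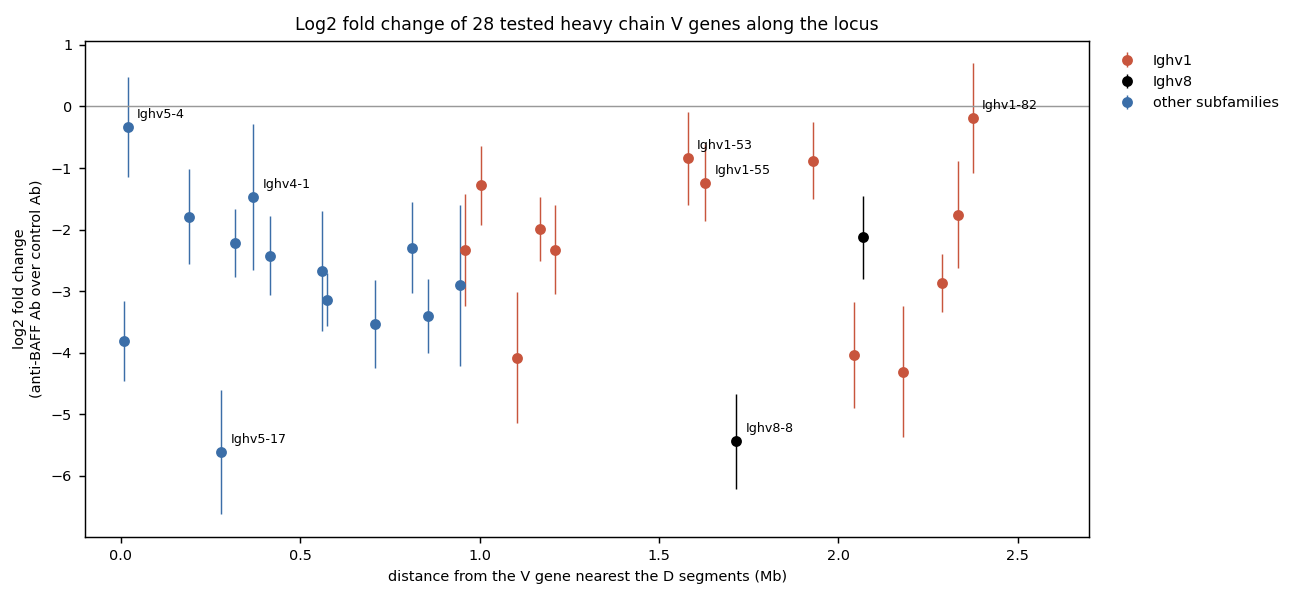
Log2 fold change (anti-BAFF Ab over control Ab, edgeR) of the 28 tested members, with bars of 1 standard error, against the distance in Mb from the member nearest the D segments. All points lie below 0, from -5.62 for Ighv5-17 to -0.19 for Ighv1-82. Strongly and weakly reduced genes lie side by side in the distal part and also at the D end, where Ighv2-2 (-3.81) neighbours Ighv5-4 (-0.335).

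Genes that make or carry heavy chains were read from a list of 22, of which 15 were tested. In edgeR, 3 of the 15 fell after adjustment over all genes (background 0.0564%) and 0 rose. An unadjusted p under 0.05 was reached by 7, all lower (background 1.24%). A log2 fold change below 0 was found for 10 of the 15 (background 48.5%). Ighm, the constant region of IgM, was at 1603, 1007, 1348 and 1642 CPM with control Ab and at 345, 160, 387 and 199.7 CPM with anti-BAFF Ab (log2 fold change -2.36, adjusted p = 0.0448 from edgeR). Jchain, which links IgM and IgA into polymers, was at 128.5, 84.2, 121 and 174 CPM and at 21.9, 10.1, 29.3 and 13.3 CPM (log2 fold change -2.77, adjusted p = 0.0448 from edgeR). Pou2af1, a B cell coactivator of octamer-binding factors, had a log2 fold change of -1.98 with the same adjusted p. All 3 were without overlap between the groups.

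The B cell genes Pax5 (log2 fold change -1.53, adjusted p = 0.145 from edgeR), Cd79a (-1.77, adjusted p = 0.231) and Ighd, the constant region of IgD (-1.79, adjusted p = 0.858), did not overlap either but did not pass after adjustment. All other tested genes of the list overlapped between the groups. Among them were Cd79b (log2 fold change -0.685), Spib (-0.284), Ebf1 (0.024) and Pou2f2 (0.090). Genes of precursor B cells were at or near 0: Rag1, a subunit of the V(D)J recombinase, had 1 count in each group, and Igll1, part of the surrogate light chain, had 1 count in the control Ab-treated mice and 0 in the others.

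Marker lists of the cells an SVF can hold were summed per mouse. The 8 B cell markers summed to 52.8 to 62.5 CPM with control Ab and 23.2 to 44.0 CPM with anti-BAFF Ab. Of these, 7 of 8 were lower at an unadjusted p under 0.05 in edgeR (background 1.24%). Of 6 plasma cell markers Jchain fell and Mzb1, a chaperone of antibody assembly, was lower at an unadjusted p under 0.05 (log2 fold change -2.07, adjusted p = 0.188 from edgeR), both without overlap. The sum of all 6 was 578 to 705 CPM with control Ab and 477 to 597 CPM with anti-BAFF Ab. Most of it was Sdc1 and Xbp1, whose log2 fold changes were 0.012 and 0.0012. Its difference lay mainly in Jchain, at 127 and 18.7 CPM on average. The groups overlapped in Sdc1, Xbp1, Prdm1 (log2 fold change 0.245) and Tnfrsf17 (-0.599). The 6 T cell, 5 macrophage, 5 adipocyte progenitor, 3 endothelial and 4 adipocyte markers overlapped between the groups, with 0 of them past an unadjusted p of 0.05. Neutrophil markers summed to 157 CPM in anti-BAFF Ab-treated mouse 5 and to 27.7 to 39.1 CPM in the other mice. Epididymis markers summed to 1111 CPM in mouse 2 and 1355 CPM in mouse 7, against 7.20 to 673 CPM elsewhere, and the part of these markers in the V gene values was not tested beyond leaving both mice out. Without mice 2 and 7 the Ighv1 share differed by 17.3 points, again without overlap, while 10 subfamily sums were lower at an unadjusted p under 0.05 and 0 after adjustment in edgeR. Ighv2 then had a log2 fold change of -3.77 (adjusted p = 0.0579 from edgeR) and Ighv8 of -4.46 (adjusted p = 0.127).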

How the data were processed

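Total RNA of the SVF was sequenced by a service laboratory (paired-end, NovaSeq), and the authors deposited whole-number counts per gene in one table, not normalized. Each gene's position, biotype and length stand beside them. The submitters' processing notes name mm10. Which aligner, counter and annotation were used, and whether strand was, is not given in the sources used here, so reads of near-identical V genes may have been split or dropped, and sense and antisense reads cannot be told apart. The deposited gene length, an other value in bases, was used for levels per kilobase and for FPKM in an alternative, since the methods name FPKM. All 110 members matched a RefSeq symbol and overlapped that gene in GRCm38.p6.

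Mice were grouped by the treatment and numbered by the mouse number in their titles. Each mouse is 1 library, the labels give no batch, and no 2 replicates were a repeated library (smallest chi-square per degree of freedom over genes 7.32). edgeR 4.0.16 (R 4.3.3) was run on the deposited counts (filterByExpr, minimum count 10, TMM, glmQLFit without the robust option, prior degrees of freedom 3.14, treatment as the only term), on all genes and again with the members of a subfamily replaced by their sum. P-values were adjusted by Benjamini-Hochberg over all 15963 or 15946 rows tested. Shares were set against each other in exact permutation tests, two-sided (scipy 1.17.1), and their 95% intervals are Wilson's. DESeq2 1.42.0 and limma 3.58.1 on log2(FPKM + 1) were alternatives, as were other normalizations, no filter, the robust option and leaving out mice. The scripts were tested on simulated data.

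Members named with values were the 10 highest by mean CPM per kilobase, the highest of each subfamily with a mean of at least 1 CPM, and the first and last with counts along the locus. Members and lists were chosen with earlier results of these data known. Ighv11 and Ighv12 were left out by the rule that defined the members. A gene of the heavy chain expression list is not reported here.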

Additional observations from a re-analysis of the deposited data

Results flagged for a closer look

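Dixon's test at the 95% level marked 1 mouse as far from the other 3 in 12 of 64 sets of 4 values. About 1 in 20 sets, or 3.2, would be marked by chance if the values were normally distributed and the sets independent. Some sets repeat each other, such as Ighv4-1 and the Ighv4 sum. The marks of Ighv5-2 rest on 2 counts and 1 count, below the limit of 3 counts. The 12 marks are therefore not read against 3.2. No explanation was tested for any of them.

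Control Ab-treated mouse 1 stood above the other controls for the Ighv10 sum at 8.06 CPM (others 1.12 to 1.73), for Ighv10-3 at 6.14 CPM (others 0 to 0.946) and for Ighv9-3 at 18.98 CPM (others 1.98 to 3.84). The share of its leading member, Ighv5-17, was 16.7% of member counts (others 7.10 to 8.74%). Control Ab-treated mouse 2 was low for Ighv1-69 at 1.54 CPM (others 6.39 to 7.17) and was the only control with counts on Ighv5-2, at 0.118 CPM.

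Anti-BAFF Ab-treated mouse 5 was high for Ighv4-1, which is also the Ighv4 sum, at 2.56 CPM (others 0 to 0.196), for Ighv1-26 at 4.17 CPM (others 0.450 to 0.587) and for Ighv1-69 at 1.14 CPM (others 0.0563 to 0.110). Mouse 8 was high for Ighv5-17 at 0.848 CPM (others 0.0673 to 0.113). Mouse 10 was the only anti-BAFF Ab-treated mouse with counts on Ighv5-2, at 0.0552 CPM.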

How the results depend on the processing

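No result reversed its direction under any alternative run. The number of members past an adjusted p of 0.05 was 0 in the main test and was 3 without the filter on low counts, 21 with DESeq2's Wald test, 1 with limma on log2(FPKM + 1) and 0 to 2 with a mouse left out (2 without control Ab-treated mouse 2 and 1 without control Ab-treated mouse 9). The number of subfamily sums called was 2, and was 10 with DESeq2, 0 without mice 2 and 7 (chosen after seeing the data) and 0 to 1 with a mouse left out, fewer mice being part of those fits. Ighv2 and Ighv8 were called with RLE, with library size only, without the filter and with the robust option too. The cause of the gap between edgeR and DESeq2 was not tested. Over left-out mice the Ighv1 share difference ran from 12.5 to 19.4 points, the D-proximal share difference from -17.1 to -10.2 points and the log2 ratio of the mean summed levels from -2.67 to -2.13 (-2.38 with all mice). Without Ighv1-53 and Ighv1-55, chosen after seeing the data, the Ighv1 share difference was 9.57 points and overlapped. With Ighv11 and Ighv12 in the denominator alone the D-proximal share difference was -3.78 points, which that construction lowers, since their counts are higher with control Ab. Their own position along the locus was not taken into account, so this value cannot tell whether the reduction went with position. No paired analysis was possible because the groups share no mouse number. The depth limits single members most: with 231 to 708 member counts in an anti-BAFF library, a gene without counts there may still be transcribed at up to 0.202 CPM.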
